A study of Mus musculus with 6 samples.

Results

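Snhg14 and its neighbours in the imprinted Snrpn region of mouse chromosome 7 were followed across 6 Affymetrix mouse expression arrays, in which a gene is read by 1 or more probe sets of short oligonucleotides. The 10 genes were Snhg14, Snrpn, Ube3a, Magel2, Ndn, Mkrn3, Peg12, Atp10a, Gabra5 and Herc2. They were read by 36 of the 45037 probe sets other than controls. Of these, 30 carry the symbol of 1 member alone and 6 carry both Snurf and Snrpn, a gene pair with a common transcript, and are called the shared Snurf and Snrpn probe sets. The region was chosen on the difference between the groups, in which earlier results of these data had placed Snhg14 among the largest increases and Magel2 among the higher imprinted genes. Differences between the groups at the members are therefore given as a description, with an interval and no p-value. Calls of members at a significance threshold are counted and followed further below, also as a description alone.

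All 6 samples were of the mouse embryonic stem cell line R1. Each population had received, by lentivirus, a short hairpin RNA (shRNA) and had been sorted by GFP, so both groups carry a virus and a hairpin. In the control group the hairpin targeted luciferase (3 arrays), and in the other group it was shRNA1 against KIAA1718, the histone demethylase encoded by Kdm7a (3 arrays). A single hairpin stands for the target, and it cannot be told apart from the infected population that carried it. Whether the replicates are separate cultures is not stated in the labels, and a p-value here reflects spread among arrays that may be purely technical.

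The mouse region corresponds to the segment of human chromosome 15 involved in Prader-Willi and Angelman syndromes. Marks laid down in the germ line leave Snurf and Snrpn, Snhg14, Ndn, Magel2, Mkrn3 and Peg12 expressed from the paternal chromosome. Snhg14 is a long noncoding RNA that hosts families of small nucleolar RNAs, and its far end runs antisense to Ube3a, which it silences on the paternal chromosome of neurons. Outside neurons, Ube3a is expressed from both parental copies. The arrays measure the sum over both alleles and hold no information on parental origin.

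In the RefSeq annotation of GRCm38.p6 the members lie in the order Herc2, Gabra5, Atp10a, Ube3a, Snhg14, Snrpn, Ndn, Magel2, Mkrn3 and Peg12. Snhg14 and Snrpn lie on the minus strand and share their outermost annotated start, while Ube3a lies on the plus strand. RefSeq promoter windows of GRCm38.p6, running from 250 bases before to 50 bases after a start, were found for all 10 members, 13 distinct windows with that of Snurf, which coincides with 1 of the 4 Snrpn windows. The common Snhg14 and Snrpn window and the Snurf and Snrpn window are shown in full, since the probe sets of the genes annotated to begin there gave the highest differences of the region. Capitals mark the letters CGCATGCG, the centre of the recognition sequence of the transcription factor NRF1, a match chosen after the sequences were seen.
Snhg14 and Snrpn outer start, chr7:60450128-60450427, minus strand: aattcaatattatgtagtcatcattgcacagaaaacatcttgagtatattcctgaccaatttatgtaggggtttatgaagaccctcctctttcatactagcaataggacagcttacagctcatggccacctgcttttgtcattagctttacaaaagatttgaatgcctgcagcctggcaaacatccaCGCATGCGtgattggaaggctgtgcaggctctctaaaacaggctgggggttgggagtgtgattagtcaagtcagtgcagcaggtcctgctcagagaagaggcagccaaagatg
Snurf and Snrpn start, chr7:60005150-60005449, minus strand: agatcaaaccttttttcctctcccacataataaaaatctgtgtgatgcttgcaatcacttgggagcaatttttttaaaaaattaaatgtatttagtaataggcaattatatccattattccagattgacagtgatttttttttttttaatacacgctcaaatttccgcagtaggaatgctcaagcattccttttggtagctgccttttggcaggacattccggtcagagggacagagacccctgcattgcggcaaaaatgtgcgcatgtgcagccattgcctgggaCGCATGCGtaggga

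The CGCATGCG match, which reads the same on both strands, occurred in 5 of the 13 windows, against 1.87% of all 32851 RefSeq promoter windows of 300 bases. The remaining matches lay at the 2 intermediate Snrpn starts and at Ndn, and the stretches around all 5 are set out for comparison.
Snhg14 and Snrpn outer start, chr7:60450222-60450251, minus strand: gcaaacatccaCGCATGCGtgattggaagg
Snrpn intermediate start nearer the outer one, chr7:60140285-60140314, minus strand: gcaaacatccaCGCATGCGtgatgggaggg
Snrpn intermediate start nearer Snurf, chr7:60048031-60048060, minus strand: gcaaacatgcaCGCATGCGtcgttgaaggt
Snurf and Snrpn start, chr7:60005150-60005174, minus strand: attgcctgggaCGCATGCGtaggga
Ndn start, chr7:62348243-62348272, plus strand: gcttcccaacaCGCATGCGcaatatcgcat
The 3 outer Snrpn windows resembled each other along their length, with 79.7% to 81.1% identical columns in global alignments, and each shared 47.3% to 50.2% with the Snurf and Snrpn window. The outer Snhg14 and Snrpn window held 2 CpG dinucleotides and the Snurf and Snrpn window 7, against a median of 7 over all windows. The Atp10a and Ube3a windows held 20 and 29 and no CGCATGCG. The letters TGCCGC on either strand, the core recognised by the imprint-protecting factor ZFP57, occurred in 1 of the 13 windows, that of Snurf and Snrpn, and in 11.6% of all windows. A match is a description of letters, and no binding was measured.

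The values of the whole series set the frame. Median deposited signals ran from 9.58 to 13.3 across arrays, and correlations over the 27022 probe sets bright enough to be tested were 0.983 to 0.989 within groups and 0.977 to 0.985 between them. The targeted gene Kdm7a had a signal of 36.5 ± 7.39 under the luciferase shRNA and 33.2 ± 8.64 under the KIAA1718 shRNA (SD, n = 3), and its difference of -0.20 did not pass (limma adjusted p = 0.534). It gives no check of the labels, and groups are named below by the shRNA on their label. Markers of embryonic stem cells were bright in both groups, with Pou5f1, which encodes Oct4, at 1095 and 1056 and Sox2 at 1412 and 1422. Among all 12742 genes tested, each by its brightest probe set, 2.64% were higher and 2.17% lower under the KIAA1718 shRNA. Of the 12 listed stem cell markers 4 fell (Esrrb, Klf4, Fgf4 and Utf1) and none rose, with Klf4 at -0.91 ± 0.11 (limma adjusted p = 0.00124). Their summed normalized signal ran from 15019 to 15440 under the luciferase shRNA and from 12889 to 13599 under the KIAA1718 shRNA, and the part of this shift in the values of the region was not tested. The call of Utf1 was lost without any 1 array other than KIAA1718 replicate 1, and on unscaled arrays Fgf4 lost its call too, which left 2.

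Snhg14 was higher in every KIAA1718 shRNA array at all 3 of its probe sets. At the brightest, 1436964_at, the deposited signals were 82.7, 52.2 and 81.2 under the luciferase shRNA and 346, 361 and 417 under the KIAA1718 shRNA. The groups do not overlap, and the spread within either is small beside the gap. The difference was 2.05 ± 0.13 (SE, n = 3 per group) with a 95% interval of 1.76 to 2.33, in units of log2(normalized signal + 16), a scale that understates the change of dim probe sets and is used for every difference below. Without adding 16, the ratio of mean normalized signals was 4.74. In bulk RNA, more cells of a type and more RNA per cell cannot be told apart.

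The second Snhg14 probe set, 1455087_at, gave 75.4, 50.5 and 65.0 against 256, 317 and 298, a difference of 1.82 ± 0.14. The dimmest, 1445296_at, was dim in the controls at 6.03, 4.83 and 7.34 and stood at 28.8, 28.3 and 19.2 in the KIAA1718 arrays, a difference of 0.83 ± 0.15. Its normalized signals stood in a ratio of 3.80, and the added 16 keeps its logarithmic difference below those of the brighter probe sets. All 3 therefore ranked the groups alike, and in the control group each was lowest in luciferase replicate 2 before scaling.

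**Figure D1:**
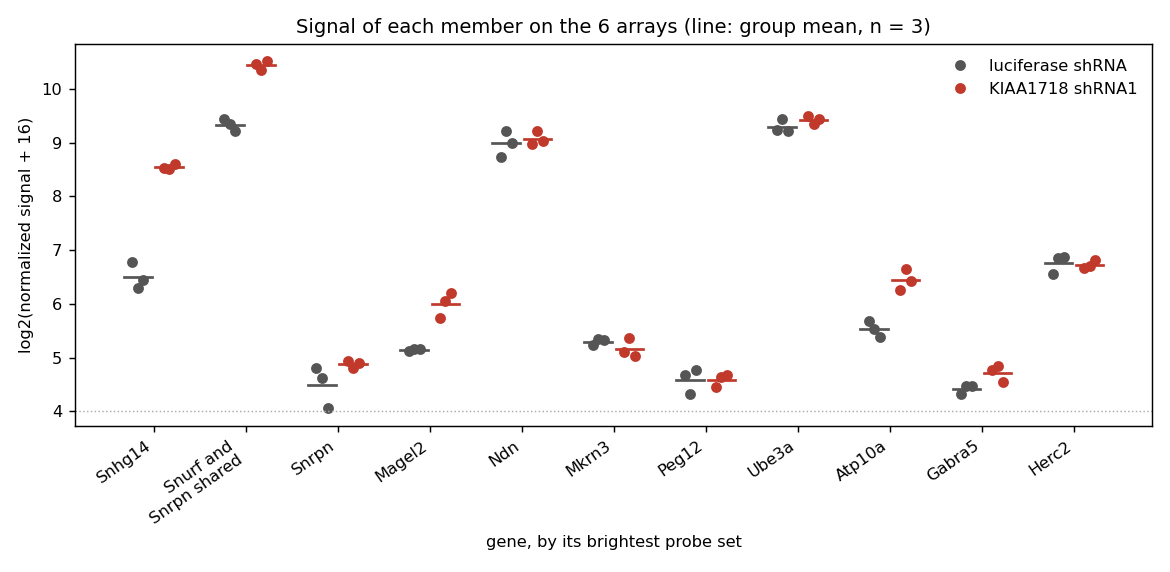
Log2(normalized signal + 16) on each of the 6 arrays for the brightest probe set of each member and of the shared Snurf and Snrpn probe sets; points are arrays, lines group means, and the dotted line marks the value of a signal of 0. Snhg14, the shared Snurf and Snrpn probe set, Magel2, Atp10a and, at low signal, Snrpn alone and Gabra5 show groups that do not overlap, and heights of different genes are not comparable.

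The shared Snurf and Snrpn probe sets, which read the transcript encoding the small upstream protein SNURF and the spliceosomal protein SmN, were higher as well. The brightest, 1415895_at, gave 622, 539 and 631 under the luciferase shRNA and 1358, 1316 and 1578 under the KIAA1718 shRNA, a difference of 1.11 ± 0.08. Every KIAA1718 array lay above the highest control. The probe set 1421063_s_at gave 203, 164 and 178 against 634, 829 and 882, the highest difference of the 5 tested at 1.87 ± 0.13. For 1415896_x_at the signals were 331, 244 and 274 against 854, 771 and 1008, and the difference was 1.45 ± 0.14. These probe sets agreed on the direction but not on the size, and their 95% intervals of 0.93 to 1.29, 1.59 to 2.15 and 1.15 to 1.75 set the first apart from the second.

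The other shared probe sets were less even. The probe set 1435716_x_at differed by 0.71 ± 0.17, with controls at 251, 298 and 245 and KIAA1718 arrays at 412, 618 and 457. The dim 1441905_x_at differed by 1.44 ± 0.14, from 8.71, 8.42 and 11.3 to 50.9, 68.2 and 53.9, a ratio of 5.48 in mean normalized signal. The sixth had signals of 1.02 to 6.18 and was too dim to be tested. Probe sets with names ending in x_at or s_at can also bind related transcripts, as can happen between Snrpn and its close relative Snrpb, which encodes the general SmB protein. Snrpb itself, outside the region, differed by 0.15 (limma adjusted p = 0.231).

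The single probe set annotated to Snrpn alone, 1432096_at, was dim, at 10.01, 7.36 and 0.758 against 14.0, 12.5 and 16.3. After normalization its groups do not overlap, by a margin smaller than the spread among the controls, and the difference of 0.38 ± 0.18 had an interval of -0.01 to 0.78. Without luciferase replicate 3 it was 0.16, and it ran from 0.13 with a pseudocount of 64 to 1.28 with a pseudocount of 1. The statement on Snrpn therefore rests on probe sets that read Snurf as well. Because the annotated Snrpn and Snhg14 spans share a start and a strand, a probe set of one may read RNA of the other, and this was not tested.

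Further out on the same side lie 4 intronless or nearly intronless paternally expressed genes. Magel2, which encodes a MAGE protein acting with ubiquitin ligases, gave 15.9, 16.6 and 22.4 against 36.2, 51.0 and 66.7 at its only probe set. The groups do not overlap, and the difference was 0.85 ± 0.14 with a ratio of 2.50 in mean normalized signal. Ndn, the gene of the related MAGE protein necdin and the nearest neighbour of Magel2, overlapped between the groups at all 5 tested probe sets. Its brightest, 1435382_at, gave 376, 493 and 538 against 481, 604 and 563, a difference of 0.09 ± 0.12 with an interval of -0.17 to 0.36. The 5 differences ran from -0.14 to 0.28, and the 3 untested Ndn probe sets never exceeded a signal of 6.02. The interval of Magel2, 0.54 to 1.17, does not meet that of the brightest Ndn probe set. It does meet that of the Ndn probe set 1455792_x_at, -0.06 to 0.63. The difference between these genes was not itself tested.

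Mkrn3, a zinc-finger ubiquitin ligase gene known from the timing of puberty, gave 18.4, 20.5 and 27.4 against 18.1, 26.1 and 19.5. Peg12, a relative of the Wnt regulator genes Frat1 and Frat2, gave 8.23, 3.30 and 13.0 against 5.78, 9.43 and 10.9. Both overlapped between groups, with differences of -0.13 ± 0.13 and -0.01 ± 0.15. The Peg12 signal lay below the median of its array on every array except luciferase replicate 3, and at such signals a change is hardly measurable.

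On the opposite side of Snhg14, Ube3a, the gene of a ubiquitin ligase, is the next gene and is overlapped by it. Its brightest probe set, 1416680_at, gave 534, 583 and 630 against 682, 670 and 747. These deposited signals do not overlap, yet the arrays differ in scale, and after normalization the values were 9.23, 9.44 and 9.21 against 9.49, 9.35 and 9.43 (log2), which do overlap. The difference was 0.13 ± 0.09 with an interval of -0.07 to 0.33. All 6 Ube3a probe sets overlapped between the groups, with differences of -0.11 to 0.17, so no Ube3a probe set stood apart between the groups in either direction.

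Atp10a, the gene of a phospholipid transporter whose imprinting varies with tissue and strain, was higher at all 3 tested probe sets. Its brightest, 1447851_x_at, gave 30.4, 25.7 and 29.3 against 58.6, 85.7 and 80.0, a difference of 0.91 ± 0.14. The probe set 1447272_s_at differed by 0.97 ± 0.17, from 16.8, 7.62 and 24.5 to 38.9, 49.9 and 61.6. At the dimmest of these, 1452013_at, the signals were 8.14, 9.66 and 11.7 against 24.9, 19.1 and 23.8, and the difference was 0.50 ± 0.13. The groups do not overlap at any of these 3, and an untested Atp10a probe set stayed between 1.06 and 8.08. In gene order Ube3a lies between Atp10a and Snhg14.

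Gabra5, which encodes a subunit of the GABA-A receptor, was dim in controls at 3.47, 5.18 and 6.87 and gave 10.9, 13.4 and 8.55 in the KIAA1718 arrays. Its groups do not overlap, as at 12.5% of all tested probe sets with the KIAA1718 arrays above. The interval of 0.00 to 0.59 around 0.30 begins at 0. The Gabra5 signal lay below the median of its array on every array except KIAA1718 replicate 2. Herc2, the gene of a giant ubiquitin ligase at the edge of the region, gave 68.8, 84.3 and 115 against 83.1, 90.7 and 109. These overlap, and the difference was -0.03 ± 0.13. The other 3 Herc2 probe sets had signals of 0.917 to 8.34 and were not tested; at 1 of them the KIAA1718 arrays lay below all controls.

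Counted together, 28 of the 36 member probe sets were bright enough to be tested. Of these, 11 had a limma adjusted p below 0.05 with higher values under the KIAA1718 shRNA, against 1.94% of all tested probe sets, and none had one with lower values, against 1.74%. With the replicate number as a block, the calls among all probe sets went from 993 to 1683. The 11 were 3 for Snhg14, 5 shared by Snurf and Snrpn, 2 for Atp10a and 1 for Magel2. Non-overlapping groups with the KIAA1718 arrays above were found at 14 of the 28, against 12.5% of all tested probe sets. Such groups with these arrays below were found at none of the 28, against 11.7%. The filter used the mean over all arrays, so a dim probe set could be kept by its higher group. Gabra5, among the 14, had log2 means of 4.42 under the luciferase shRNA and 4.72 under the KIAA1718 shRNA. The Herc2 probe set 1427623_at, at 4.56 and 4.38, was dropped, and its KIAA1718 arrays lay below all controls. The counts of 14 and none therefore depend in part on the filter. The median difference was 0.29 over the 28 and 0.00 over all tested probe sets. Since the region was chosen on this contrast, these counts support nothing about it.

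**Figure D2:**
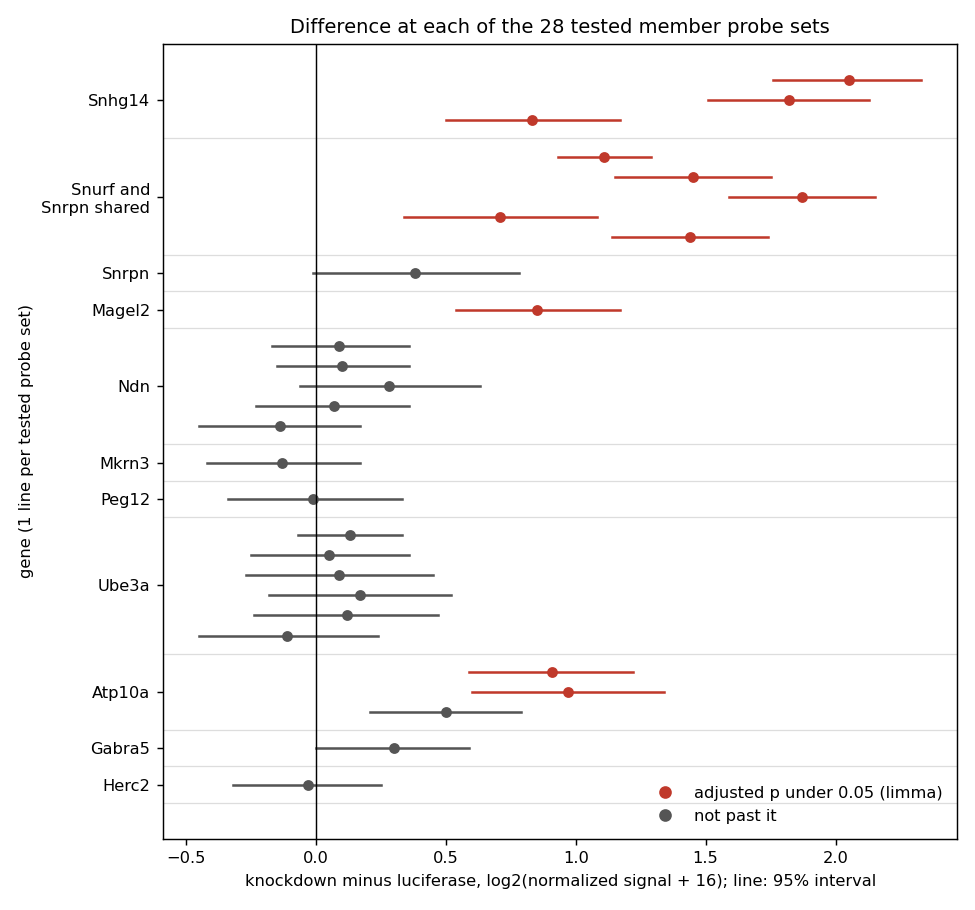
Difference between the KIAA1718 and the luciferase shRNA arrays at each of the 28 tested member probe sets, with 95% intervals from limma; red marks the 11 past the adjusted threshold. The Snhg14 and the shared Snurf and Snrpn probe sets lie between 0.71 and 2.05, and those of Ndn and Ube3a between -0.14 and 0.28.

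Leaving out single arrays moved some of these. Magel2 no longer passed without luciferase replicate 3 or KIAA1718 replicate 3, at 0.85 and 0.74. The dimmest Snhg14 probe set was lost without luciferase replicate 3 or KIAA1718 replicate 2, the Atp10a probe set 1447272_s_at without KIAA1718 replicate 3, and the shared probe set 1435716_x_at without any 1 array other than luciferase replicate 2. The brightest Snhg14 probe set ran from 1.94 to 2.18 without 1 array, and the brightest shared and Atp10a probe sets from 1.05 to 1.16 and from 0.81 to 1.00, all still past the threshold. Because these values served to choose the region, a call that is kept supports nothing about it.

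Genes around and between the members, taken by position, were examined in RefSeq order. They comprised up to 12 genes outward on each side and those lying between members, 30 in all, of which 14 had a tested probe set of their own. None passed the threshold (limma, lowest adjusted p = 0.250, and 1 with an unadjusted p below 0.05). Their differences ran from -0.32 for Fancf, a DNA repair gene, to 0.31 for Chrna7, which encodes a subunit of the nicotinic acetylcholine receptor. Nipa1 and Nipa2, magnesium transporter genes beside Herc2, differed by 0.21 and 0.20, and the pigment gene Oca2, between Herc2 and Gabra5, by 0.05. At Nipa2 the groups do not overlap, with the KIAA1718 arrays above, and at the other tested neighbours they overlap. A noncoding RNA inside the Snhg14 span, Ipw, and the GABA-A receptor gene Gabrg3 were below the filter.

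**Figure D3:**
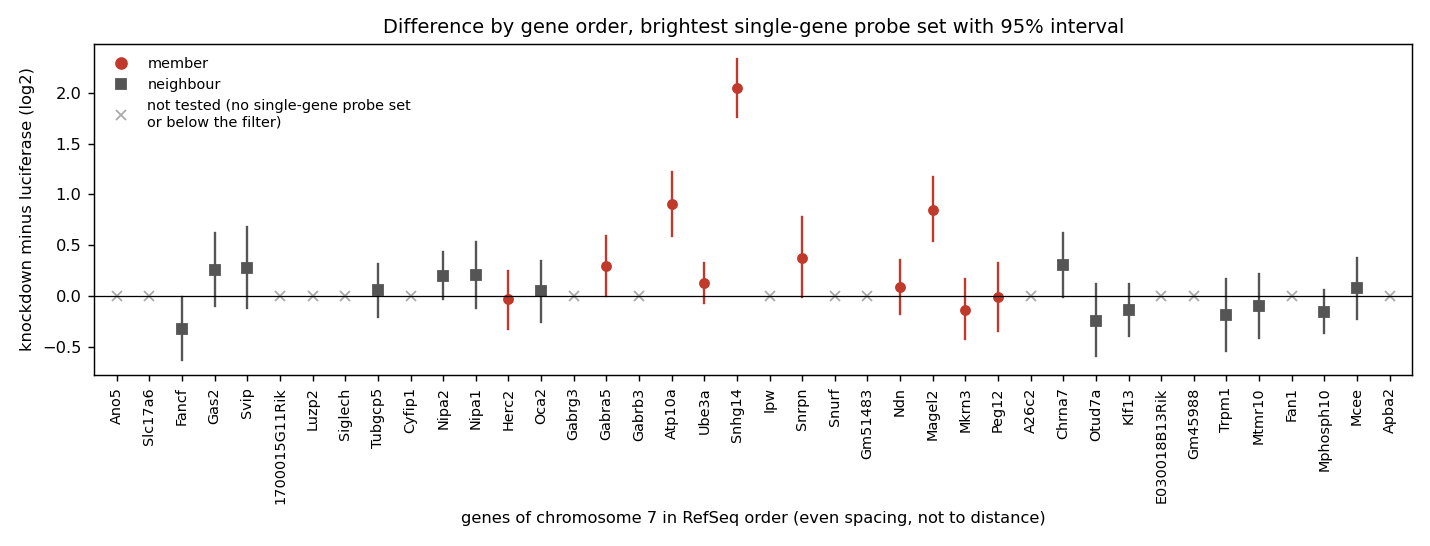
Difference between the groups for genes of chromosome 7 in RefSeq order and evenly spaced, by the brightest probe set of 1 gene alone, with 95% intervals; circles are members, squares neighbours, and crosses genes not tested. Snhg14 stands at 2.05, Atp10a at 0.91 and Magel2 at 0.85, and the 14 tested neighbours lie between -0.32 and 0.31.

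A wider list of flanking genes, which shares most of these neighbours, gave the same count. Of its 15 tested genes none rose or fell, and its median was 0.05 against 0.00 for all 12742 genes tested, of which 2.64% were higher and 2.17% lower. The nearest to the threshold was Tjp1, a tight junction gene of the same chromosome, at 0.31 (limma adjusted p = 0.0711). Its groups do not overlap, with the KIAA1718 arrays above as at Nipa2, and at Fam189a1 these arrays lay below all controls.

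The machinery that keeps or erases imprints was read from a list of 27 tested genes, of which 2 rose and 1 fell. Among all 12742 genes tested, 2.64% were higher and 2.17% lower. Dnmt3b, a de novo DNA methyltransferase, rose from 834, 651 and 749 to 1376, 1525 and 1334, a difference of 0.81 ± 0.10 (limma adjusted p = 0.00205). Dppa3, whose protein shields methylation after fertilization, rose by 0.94 ± 0.20 (limma adjusted p = 0.0263), a call lost without any 1 array other than luciferase replicate 1. Ehmt2, the H3K9 methyltransferase G9a needed for silencing at the imprinting centre of this region, fell from 411, 377 and 470 to 288, 287 and 293, a difference of -0.65 ± 0.09 (limma adjusted p = 0.00390). Ehmt2 lost its call on unscaled arrays, which shift the median probe set by 0.10. The list median was 0.00, and the relation of these genes to the region was not tested.

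Genes of the same families elsewhere in the genome were read beside all 12742 genes tested, of which 2.64% were higher and 2.17% lower. In family lists this short, counts near that share say nothing particular about the families. None of the 8 tested MAGE relatives of Ndn and Magel2 and partners of these proteins rose or fell. Among 24 relatives of Snrpn, Ube3a, Herc2, Atp10a, Gabra5, Mkrn3 and Peg12, the phospholipid transporter gene Atp11a fell by 0.51 (limma adjusted p = 0.0410), a call lost without any 1 array, and the 23 others did not pass. A list of 19 other noncoding genes, most of them hosts of small nucleolar RNAs, also held Meg3 and the microRNA host Mirg of the imprinted Dlk1 region. Of these 19, 2 fell and none rose, with a median of -0.20. With the replicate block 5 passed, while calls among all probe sets went from 993 to 1683. Mirg fell by 0.62 (limma adjusted p = 0.0241) and the small nucleolar RNA host Snhg6 by 0.58 (limma adjusted p = 0.0345). Mirg lost its call without luciferase replicate 1 or 3 or KIAA1718 replicate 1 or 3, and Snhg6 without luciferase replicate 2 or 3 or KIAA1718 replicate 1 or 3. On unscaled arrays neither passed. The difference between Snhg14 and these genes was not tested.

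Neuronal markers were read because Snhg14 extends over Ube3a in neurons. Of 18 tested markers 1 rose and 1 fell, against 2.64% higher and 2.17% lower among all genes tested. The list median was 0.08. Nefl, a neurofilament gene, rose by 0.96 ± 0.16 (limma adjusted p = 0.00922), a call lost without luciferase replicate 3, and Mapt, which encodes tau, fell by 0.98 ± 0.19 (limma adjusted p = 0.0182), a call lost without luciferase replicate 3 or KIAA1718 replicate 2 or 3. The defining marker Rbfox3 was dim at 5.46, 6.17 and 5.04 against 14.7, 8.73 and 9.89 (limma adjusted p = 0.353). The summed normalized signal of the 18 ran from 2185 to 2203 under the luciferase shRNA and from 2291 to 2560 under the KIAA1718 shRNA. No tested marker was at 0, but probe sets too dim to be tested also gave signals above 0, so this does not show that neurons were present. The part of neurons in the Snhg14 difference was not tested.

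Fibroblast markers were read because embryonic stem cells are often grown on fibroblast feeders, in which Ndn is active. Of 32 tested markers 1 fell and none rose, against 2.17% lower and 2.64% higher among all genes tested. The marker that fell was Pdgfra, at -0.71 ± 0.15 (limma adjusted p = 0.0263), a call lost without any 1 array other than KIAA1718 replicate 1. With the replicate block 14 of the 32 passed, and without luciferase replicate 1 the count was 11. Calls among all probe sets were 1683 and 823 in these fits, against 993 in the main fit. The differences of the list had a median of -0.35 and a mean of -0.40, against a median of 0.00 for all genes tested. The collagen gene Col1a1 differed by -1.53 (limma adjusted p = 0.0714). The list mean was 7.64, 8.38 and 8.38 (log2) in luciferase replicates 1, 2 and 3 and 7.48, 7.82 and 7.88 in KIAA1718 replicates 1, 2 and 3, and the summed normalized signal ran from 12743 to 21190 and from 12302 to 16161. No marker was at 0, but probe sets too dim to be tested also gave signals above 0, so this does not show that fibroblasts were present. The part of fibroblasts in the values of the region was not tested. Ndn was lowest in replicate 1 of both groups, at 8.74 and 8.98 against 8.99 to 9.22 on the other arrays, as the fibroblast mean was. With the fibroblast mean as a covariate, the brightest Ndn probe set differed by 0.28, Snhg14 by 1.88 and the brightest shared Snurf and Snrpn probe set by 1.04. Under this covariate 8 member probe sets passed in place of 11, while calls among all probe sets went from 993 to 308. The dimmest Snhg14 probe set, the shared 1435716_x_at and the Atp10a probe set 1447272_s_at lost their calls, and the part of fibroblasts in these losses was not tested.

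**Figure D4:**
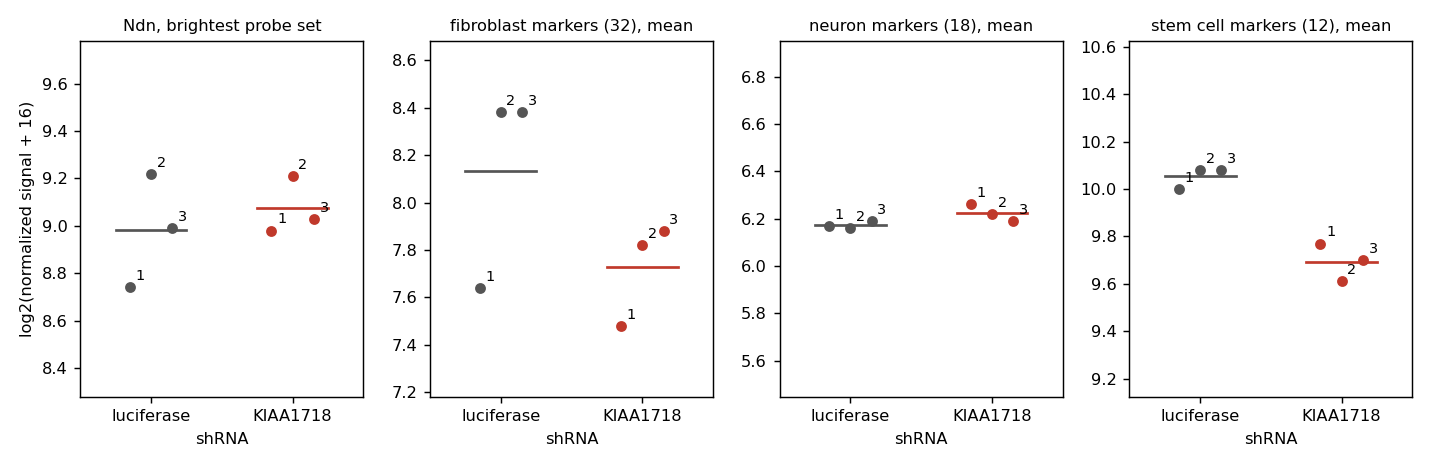
Log2(normalized signal + 16) on each array for the brightest Ndn probe set and for the means of 32 fibroblast, 18 neuron and 12 embryonic stem cell markers; digits are replicate numbers, lines group means, and every panel spans the same range. Replicate 1 of both groups is lowest for this Ndn probe set and for the fibroblast markers, and the stem cell mean is lower on all 3 KIAA1718 arrays.

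The genes whose level followed that of Snhg14 most closely across the 6 arrays were named by Pearson correlation on the log2 scale, as a description over arrays of the same groups and scaling. These were Nxf3, a relative of the mRNA export factor genes, at 0.999, the interferon-inducible GTPase gene Gbp2b at 0.998, the splicing factor gene Rnps1 at 0.996, Wdr3 at 0.995 and the antibody receptor gene Trim21 at 0.994. Nxf3 gave 33.9, 22.7 and 34.3 against 98.9, 103 and 129. Within the region, the second Snhg14 probe set followed the first at 0.993, the brightest shared Snurf and Snrpn probe set at 0.991, the brightest Atp10a probe set at 0.958 and Magel2 at 0.942. For the brightest probe sets of Ube3a, Ndn and Herc2 the values were 0.528, 0.164 and -0.250. With 2 groups of arrays, any gene that differs between them correlates, and no shared control follows from these values.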

How the data were processed

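RNA levels came from 6 Affymetrix mouse expression arrays, 3 per group, with groups and replicate numbers from the sample titles. The deposited values are the authors' intensity for each probe set on a linear scale. The submitters' processing notes name the GCOS software, with its version and settings not given in the sources used here. The arrays differed in scale, with trimmed mean signals of 61.3 to 81.2. The 64 AFFX controls were left out, signals were quantile-normalized, 16 was added before log2, and probe sets in the lowest 40% by mean normalized value were dropped, leaving 27022. Signals in the text are deposited intensities, and differences, intervals and ratios come from normalized values. The test was two-sided, from limma 3.58.1 under R 4.3.3 (lmFit, then eBayes using an intensity trend), with Benjamini-Hochberg adjustment over all tested probe sets at 0.05, and the fit was tested on simulated data.

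Of 45037 probe sets, 34945 had 1 symbol in the platform annotation, 932 several and 9160 none, with symbols updated through Entrez numbers to RefSeq of GRCm38.p6. The genome build behind the intensities is not given in the sources used here, hence gene coordinates are left out, and promoter positions are those of the RefSeq table. The brightest tested probe set stands for a gene. The members and lists were chosen with earlier results of these data known. From the imprinting list the alias Lsh was removed after the values were seen, because it matched the unrelated gene Slc11a1 while Hells was already listed. Genes named are all members, up to 3 changed genes of each list, and the 5 most correlated with Snhg14. Kdm7a, Pou5f1, Sox2, Snrpb, Tjp1, Fam189a1, Col1a1, Rbfox3 and the neighbouring genes were named outside that rule after their values were seen. Utf1 was the fourth stem cell marker that fell. No pair of arrays held identical values, with at least 45100 probe sets differing.

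Both groups use the replicate numbers 1 to 3. Deviations from group means correlated at 0.203, 0.125 and 0.132 between arrays with equal numbers, each over 0.1, so the numbers may mark pairs. Such a pairing is read from the data alone, as the labels do not explain the numbers. The main fit leaves the pairing out, so its p-values and intervals are unpaired. A fit with replicate number as a block is an alternative, with 1683 calls among all probe sets in place of 993. Other alternatives were unscaled and median-scaled signals, pseudocounts of 1 and 64, no filter, a filter at 20%, no intensity trend, the fibroblast mean as a covariate, the mean over a gene's probe sets, and leaving out each array.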

Additional observations from a re-analysis of the deposited data

How the results depend on the processing

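Calls of members are given below only to describe how they depend on the processing. The region was chosen on this contrast, so a call that is kept is no support for it. The brightest Snhg14 probe set stayed past the threshold in the same direction under all 15 alternatives, at 1.60 to 2.25, and the brightest shared Snurf and Snrpn and Atp10a probe sets did so at 1.04 to 1.22 and 0.52 to 1.20. The means over the tested probe sets of Snhg14 and Atp10a differed by 1.57 and 0.79. The count of higher member probe sets, 11, ran from 8 to 11 without 1 array, was 7 without the filter on low values and 8 with the fibroblast covariate, and none was lower under any alternative. With the replicate block it was 11 again, and no call of a member changed. Magel2 ran from 0.43 to 1.26 and lost its call without the filter, without luciferase replicate 3 and without KIAA1718 replicate 3. Values near 0 changed sign: Ndn was -0.03 without luciferase replicate 1 and ran from there to 0.21 without 1 array. Peg12 was 0.05 with unscaled values, 0.04 with a pseudocount of 1, and 0.04, 0.09 and 0.06 without luciferase replicates 1 and 3 and KIAA1718 replicate 1, with a lowest value of -0.15. Herc2 was 0.08 with unscaled values, 0.13 with the fibroblast covariate, and 0.02 without luciferase replicate 2 or 3, with a lowest value of -0.14.

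Among all probe sets, 993 passed, of which 52.8% were higher. The count was 570 with unscaled values (81.8% higher, median of all probe sets 0.10), 943 with median scaling (40.7% higher), 290 without the filter, 631 without the intensity trend, 308 with the fibroblast covariate, 1683 with the replicate block, and 456, 248, 629, 512 and 304 without luciferase replicates 2 and 3 and KIAA1718 replicates 1, 2 and 3. Counts of changed genes ran from 0 to 14 for the 32 fibroblast markers (14 with the replicate block), 0 to 5 for the list of small nucleolar RNA hosts (5 with the replicate block), 2 to 5 for the stem cell markers, 2 to 4 for the imprint machinery, 0 to 2 for the neuronal markers and 0 to 2 for the relatives of Snrpn, Ube3a and Herc2, and stayed at 0 for the flanking genes and MAGE relatives. The cause of these moves was not tested. Detection calls were not used here, so for signals near the array medians the depth of measurement is unknown.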
